A study of Rattus norvegicus with 6 samples.

Results

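The genes described here are 10 macrophage markers, Csf1r, Cd68, Cd163, Mrc1, Adgre1, Aif1, Cx3cr1, Lyve1, Cd5l and Marco, out of 33294 gene symbols measured in the rat pituitary gland. They were taken by symbol. Of these, 9 are markers known from textbooks. Cd5l was selected on its own fold change in these same libraries, so its difference between the groups is described here without a test. The members and the marker lists used below were chosen with earlier results of these data known. Shares of them set against all genes are therefore descriptions. RNA was sequenced from the pituitary glands of 3 male Sprague-Dawley offspring of dams that received nicotine (6 mg/kg/day) from an implanted osmotic mini-pump, and of 3 male offspring of dams whose pump held sterile saline. All 6 rats were 11 weeks old. The offspring themselves received no pump, and the litter of each rat and perfusion of the animals are not given in the sources used here. The pump was of a kind that runs for longer than the time the study gives from implant to birth. Its removal is not given in the sources used here. The question put to these libraries was whether exposure through the dam, which the study calls prenatal, leaves a difference in pituitary transcripts in the adult male.

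Totals ranged from 28318383 to 85977002 counts per library. The read numbers that the study lists per library follow these totals only if the names of the groups are exchanged, and the libraries labelled nicotine hold more counts than reads listed for them. The groups are used below as GEO labels them, and every direction would turn if the files had been exchanged. Growth hormone (Gh1), prolactin (Prl) and Pomc transcripts were abundant in every library, as in pituitary tissue, with Gh1 at 52429 CPM to 115788 CPM (CPM, counts scaled to a fixed library total after TMM normalisation). In control 3 some posterior lobe genes were very low. The pituicyte gene Rax was at 0.291 CPM there and at 2.97 CPM to 11.2 CPM elsewhere, and Col25a1 at 0.925 CPM against 3.40 CPM to 14.2 CPM. Scn7a of the same list, at 49.3 CPM, was level with control 2 and nicotine 1. Nicotine 2 held the highest Rax and Gh1 levels. The posterior lobe list had higher means after nicotine in 5 of 5 genes, with a median log2 fold change of 1.40 (0.86 without control 3). At an unadjusted p under 0.05 (edgeR) 4 of the 5 were higher, against 3.13% of all genes. The labels describe the RNA extraction for testis only.

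Macrophages reside in the pituitary as in other organs. Their survival depends on the receptor tyrosine kinase encoded by Csf1r, which binds the growth factors Csf1 and Il34, and their identity depends on the transcription factor PU.1 (Spi1). Perivascular macrophages line vessels and carry scavenger receptors such as Cd163 and Mrc1, whereas microglia are the macrophages of nervous tissue, to which the posterior lobe belongs. Cd5l is a secreted scavenger protein of tissue macrophages known best in spleen and liver, and Marco is a scavenger receptor of macrophages in the marginal zone of the spleen and in the lung. In bulk RNA, fewer cells of a type and less RNA per cell cannot be told apart.

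The promoters of 9 of the 10 members were found in RefSeq (build GRCr8, whereas the counts were made on rn7), and Aif1 had no entry. The 250 bases before the start were searched on both strands for GAGGAA, the core letters that PU.1 binds, and 6 of 9 windows held it, against 23.3% of 33469 RefSeq windows of the same length. The letters TTGCNNAA of C/EBP factors were found in 1 of 9 windows, that of Adgre1, against 9.22% of windows. A match in letters is not a measured binding site. The windows of 4 members whose promoter entry begins at the outer end of the annotated gene are shown 5′ to 3′ on the strand of the gene, because they cover a lysosomal marker, the member with the largest tested log2 fold change, the member selected on its change and the only tested member with a higher mean. Capitals mark the PU.1 letters in either orientation, and the windows are chr10:54882442-54882691, minus strand for Cd68, chr17:82157475-82157724, plus strand for Mrc1, chr2:175088665-175088914, plus strand for Cd5l and chr1:174410978-174411227, minus strand for Lyve1.
Cd68: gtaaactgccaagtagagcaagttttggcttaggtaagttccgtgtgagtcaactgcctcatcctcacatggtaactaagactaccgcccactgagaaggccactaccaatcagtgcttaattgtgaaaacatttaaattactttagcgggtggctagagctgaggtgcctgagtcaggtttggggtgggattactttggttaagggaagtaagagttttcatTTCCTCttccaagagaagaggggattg
Mrc1: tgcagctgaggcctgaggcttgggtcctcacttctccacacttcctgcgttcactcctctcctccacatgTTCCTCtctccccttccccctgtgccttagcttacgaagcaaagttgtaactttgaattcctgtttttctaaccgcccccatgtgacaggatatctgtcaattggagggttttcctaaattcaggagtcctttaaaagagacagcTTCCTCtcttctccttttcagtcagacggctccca
Cd5l: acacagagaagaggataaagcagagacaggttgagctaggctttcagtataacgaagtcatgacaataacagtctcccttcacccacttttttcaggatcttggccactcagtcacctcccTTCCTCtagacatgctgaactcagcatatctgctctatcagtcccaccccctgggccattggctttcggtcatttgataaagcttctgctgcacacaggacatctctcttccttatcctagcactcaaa
Lyve1: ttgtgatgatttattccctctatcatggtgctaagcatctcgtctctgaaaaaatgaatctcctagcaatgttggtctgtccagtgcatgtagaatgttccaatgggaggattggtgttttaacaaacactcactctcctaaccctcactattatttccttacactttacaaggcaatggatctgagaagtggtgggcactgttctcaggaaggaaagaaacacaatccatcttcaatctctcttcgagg
The first base of the match lay 27 bases upstream of the start in Cd68, 180 and 35 bases upstream in Mrc1 and 129 bases upstream in Cd5l. The Lyve1 window held no such letters.

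Macrophage transcripts were present in every library. Of the 10 members, 9 had counts and Marco had none in 314872477 counts over the 6 libraries, which allows up to 0.00953 CPM (3 counts over all libraries, counting error only). The edgeR quasi-likelihood test across 17292 genes called none of the 8 tested members other than Cd5l (adjusted p under 0.1 and fold change over 1.5, adjusted p from 0.803 to 0.868), and 0% of all genes were called. At an unadjusted p under 0.05, 3 of the 8 were lower after nicotine, Mrc1, Adgre1 and Aif1, against 3.01% of all genes. DESeq2 called none of the 8 (adjusted p from 0.496 to 0.968), against 0.347% of 17876 genes. Mean levels were lower after nicotine in 7 of the 8, with a median log2 fold change of -0.47 beside 0.0070 over all genes. Mrc1 alone had every nicotine library below every control library, against 5.14% of all genes lower in this way. The p-values rest on 3 rats per group, described by the study as biological replicates.

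**Figure D1:**
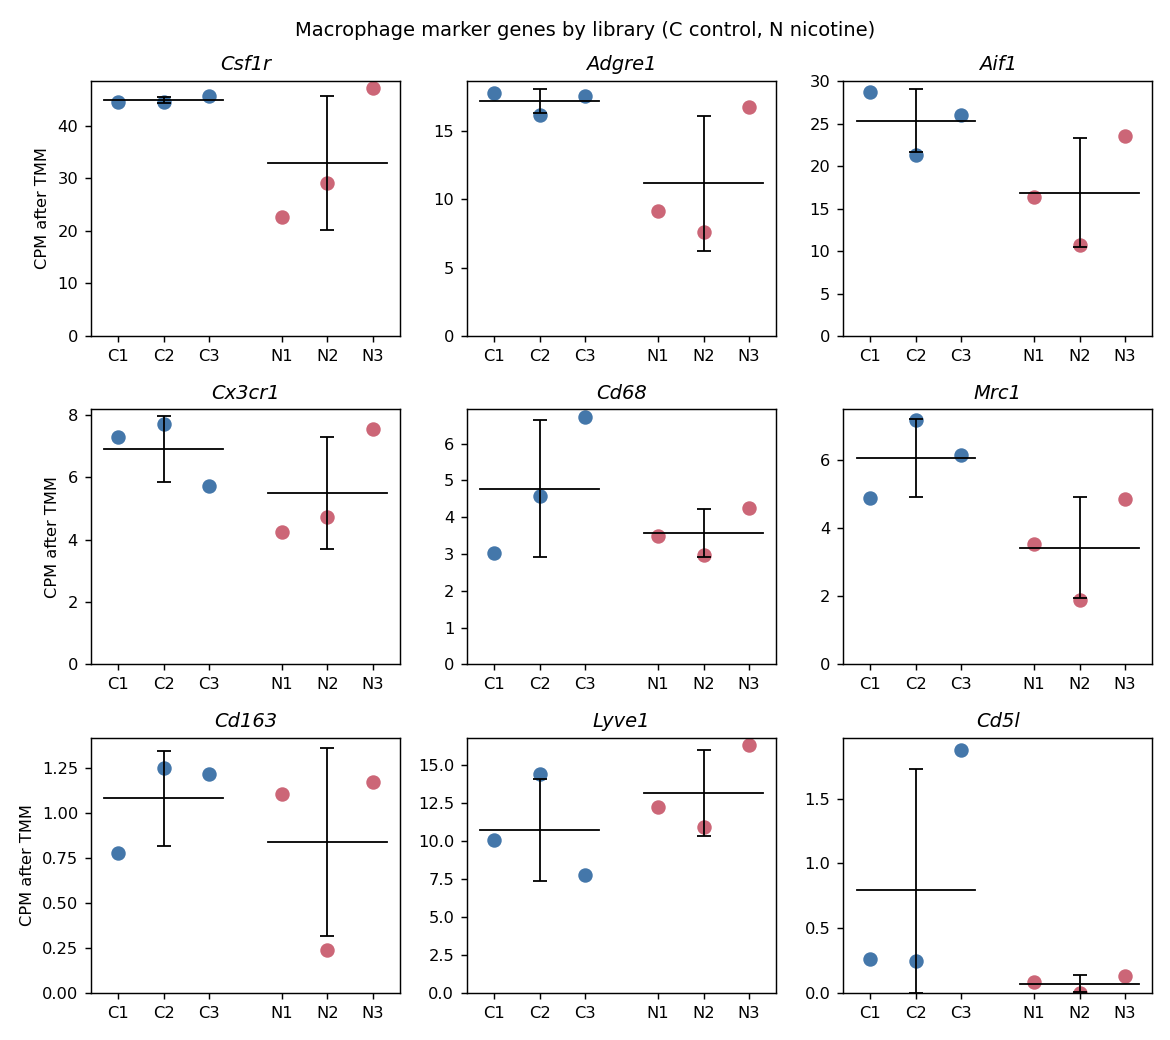
Level of 9 macrophage marker genes in each library (vertical axes, CPM after TMM normalisation from 0; horizontal axes, control libraries C1 to C3 and nicotine libraries N1 to N3). Points are libraries, long lines group means and bars SD (n = 3, cut at 0 for Cd5l). Csf1r lay at 44.5 CPM to 45.6 CPM in the controls and at 22.6 CPM, 29.1 CPM and 47.2 CPM after nicotine.

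Among the receptors, Csf1r was at 22.6, 29.1 and 47.2 CPM in nicotine replicates 1, 2 and 3 and at 44.6, 44.5 and 45.6 CPM in control replicates 1, 2 and 3. The controls were nearly identical, while nicotine 1 and 2 were lower and nicotine 3 was above all controls. The group means were 32.9 ± 12.7 and 44.9 ± 0.644 CPM (SD, n = 3 each), and the log2 fold change was -0.45 (SE 0.24, edgeR adjusted p = 0.816). Adgre1, the adhesion receptor F4/80, was at 9.14, 7.57 and 16.8 CPM after nicotine and at 17.8, 16.2 and 17.5 CPM in the controls. Again nicotine 1 and 2 were low and nicotine 3 lay within the control range. Its log2 fold change was -0.62 (SE 0.27, edgeR adjusted p = 0.806). Cx3cr1, the receptor of the chemokine fractalkine, was at 4.24, 4.71 and 7.55 CPM after nicotine and at 7.27, 7.72 and 5.71 CPM in the controls. Nicotine 3 lay between the 2 highest controls, and the groups overlapped, with a log2 fold change of -0.33 (SE 0.26, edgeR adjusted p = 0.843).

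Aif1, which encodes the actin-binding protein IBA1, was at 16.4, 10.7 and 23.5 CPM in nicotine 1, 2 and 3 and at 28.7, 21.4 and 26.1 CPM in the controls. The groups overlapped only through nicotine 3, which was higher than control 2. The log2 fold change was -0.59 (SE 0.26, edgeR adjusted p = 0.806). Cd68, a glycoprotein of lysosomes, was at 3.50, 2.96 and 4.25 CPM after nicotine and at 3.03, 4.58 and 6.74 CPM in the controls. Here control 1 was as low as the nicotine libraries, and the log2 fold change was -0.44 (SE 0.30, edgeR adjusted p = 0.832). It was -0.12 without control 3 and -0.66 without control 1.

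Of the endocytic receptors, Mrc1, the mannose receptor, was at 3.54, 1.89 and 4.86 CPM after nicotine and at 4.87, 7.17 and 6.15 CPM in the controls. The groups met almost exactly at nicotine 3 and control 1. The means were 3.43 ± 1.49 and 6.07 ± 1.15 CPM (SD, n = 3 each), and the log2 fold change of -0.85 (SE 0.33, edgeR adjusted p = 0.803) was the largest among the 8 members. Cd163, the receptor that takes up haemoglobin bound to haptoglobin, was at 1.10, 0.239 and 1.17 CPM after nicotine and at 0.775, 1.25 and 1.22 CPM in the controls. One library, nicotine 2, set it apart. Its log2 fold change was -0.49 (SE 0.52, edgeR adjusted p = 0.868) and became 0.023 without nicotine 2. Lyve1, a hyaluronan receptor of perivascular macrophages and of lymphatic endothelium, was at 12.2, 10.9 and 16.3 CPM after nicotine and at 10.04, 14.4 and 7.74 CPM in the controls. It was the only one of the 8 with a higher mean, the groups overlapped, and its log2 fold change was 0.29 (SE 0.25, edgeR adjusted p = 0.849). It was 0.098 without control 3, 0.10 without nicotine 3 and 0.57 without control 2.

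**Figure D2:**
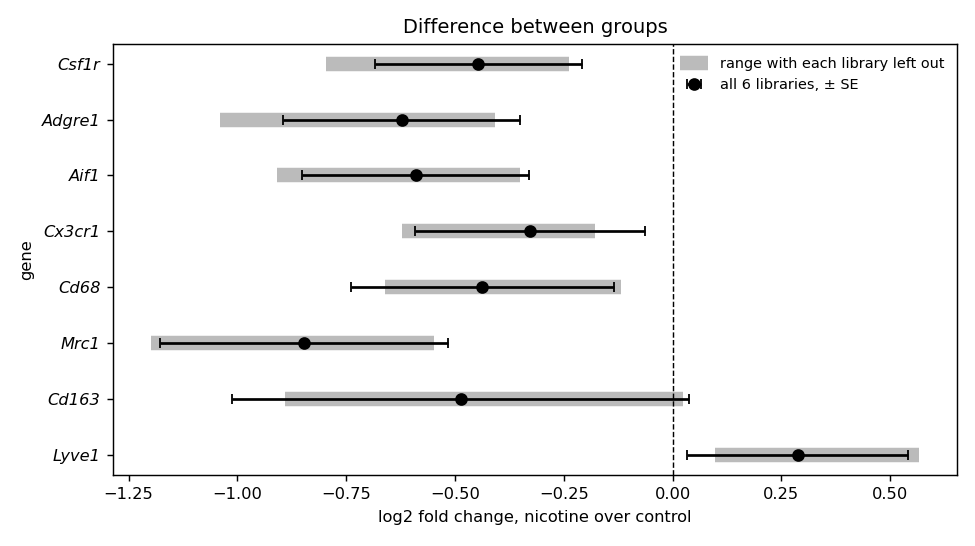
Log2 fold change of nicotine over control (horizontal axis) for 8 members (vertical axis). Points are fits to all 6 libraries, black bars are SE, and grey bars span the fits that leave out each library in turn. Lyve1 lies above 0 at 0.29, the other 7 lie between -0.85 and -0.33, and the grey bar of Cd163 reaches 0.023.

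Nicotine 1 and 2 were below nicotine 3 in each of the 8 members. The mean centred log2 CPM (each gene minus its mean over the 6 libraries) of Csf1r, Cd68, Mrc1, Adgre1, Aif1 and Cx3cr1, here called the 6-gene mean, was -0.43, -0.68 and 0.24 in nicotine 1, 2 and 3 and 0.20, 0.31 and 0.37 in control 1, 2 and 3. Nicotine 3 was therefore at the level of the controls on this mean. When nicotine 3 was left out, the log2 fold changes were -0.80 for Csf1r, -1.04 for Adgre1, -1.20 for Mrc1, -0.91 for Aif1 and -0.62 for Cx3cr1. Without nicotine 1 the value was -0.24 for Csf1r and -0.18 for Cx3cr1, and without nicotine 2 it was -0.41 for Adgre1, -0.55 for Mrc1 and -0.35 for Aif1. The lowest adjusted p among these 5 genes over all fits with a library left out was 0.223 (edgeR, Adgre1). Across the 6 libraries the 15 pairs of these genes had Pearson correlations of log2 CPM from 0.22 to 0.96 with a median of 0.70. Lyve1 and the 6-gene mean had a correlation of -0.016. These correlations describe 6 libraries that share their depth and composition.

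Genes outside the members were grouped in lists of markers, chosen with earlier results of these data known. The growth factors and regulators of the lineage gave 4 lower and 5 higher means among 9 tested genes. The median log2 fold change was 0.079, and -0.048 without nicotine 3. The fractalkine gene Cx3cl1 had a log2 fold change of 0.28, the growth factor Il34 of 0.13 and the transcription factor Maf of -0.35 (edgeR adjusted p from 0.840 to 0.905). Chosen after their values were seen, Csf1 had a log2 fold change of 0.35 and Spi1, the gene of PU.1, of -0.40, and Irf8 was at 6.19, 9.97 and 14.4 CPM after nicotine and at 15.7, 15.9 and 18.6 CPM in the controls. The ligand genes Cx3cl1, Il34 and Csf1 thus showed no lower mean. All nicotine values of Irf8 lay below the controls (log2 fold change -0.71, SE 0.27, edgeR adjusted p = 0.785). So did those of the scarce Tfec, also chosen after its values were seen (log2 fold change -1.11, SE 0.37, edgeR adjusted p = 0.760). These were 2 of 9 tested genes, against 5.14% of all genes.

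Further macrophage genes were lower in mean after nicotine in 14 of 14, and 2 of 14 had an unadjusted p under 0.05, against 3.01% of all genes. The median log2 fold change was -0.44, and it was -0.75 without nicotine 3 and -0.27, -0.25 and -0.25 without nicotine 1, nicotine 2 and control 1. Of its most abundant genes, C1qa, a chain of complement C1q, was at 60.4, 55.2 and 131 CPM after nicotine and at 159, 111 and 87.7 CPM in the controls. Ctss, a cathepsin, had a log2 fold change of -0.50. The genes below an unadjusted p of 0.05, named after their values were seen, were Mpeg1 (log2 fold change -0.62, SE 0.19) and Laptm5 (-0.45, SE 0.19). Their edgeR adjusted p was 0.760 and 0.806. In these 2 of 14 the nicotine libraries lay wholly below the controls, against 5.14% of all genes.

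Lists for kinds of macrophage differed in profile. Among 7 tested microglia genes, 5 had lower means, none with an unadjusted p under 0.05. The median log2 fold change was -0.31, and it was -0.81 without nicotine 3 and -0.20 without nicotine 1. P2ry12, the purinergic receptor of microglia, was at 3.44, 4.24 and 11.3 CPM after nicotine and at 12.2, 11.5 and 7.90 CPM in the controls, so it too was low in nicotine 1 and 2. The log2 fold change was -0.74 for P2ry12 and -0.73 for Gpr34, but 0.14 for Olfml3. Among 5 tested perivascular genes, 4 had lower means, with a median of -0.16. This median rested on single libraries, at 0.15 without nicotine 2, -0.56 without nicotine 1, -0.53 without nicotine 3 and -0.093 without control 2. Pf4 was at 15.2 CPM in nicotine 1 and at 3.69 CPM to 7.13 CPM in the other libraries, and F13a1 and Stab1 had log2 fold changes of -0.28 and -0.04. Low values of Cd163, F13a1 and Mrc1 met in nicotine 2, where the perivascular list had a centred mean of -0.96. Markers of spleen and liver macrophages were scarce, since Timd4 had at most 3 counts and Vsig4 at most 2 counts in any library. Of the 4 tested genes of this list, 3 had higher means, the widely expressed Slc40a1, Hmox1 and Nr1h3, with log2 fold changes of 0.11, 0.01 and 0.31. The remaining one, Siglec1, had a log2 fold change of -1.26 (SE 0.51, edgeR adjusted p = 0.806), with overlapping groups.

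Genes of circulating monocytes were lower in mean in 7 of 7, with a median log2 fold change of -0.72 (-0.37 without control 3). Among them 3 had an unadjusted p under 0.05, against 3.01% of all genes, and 3 did not overlap, against 5.14% of all genes. Plac8 was at 6.53, 4.34 and 7.27 CPM after nicotine and at 14.1, 10.1 and 13.2 CPM in the controls. These groups were well apart (log2 fold change -1.04, SE 0.24, edgeR adjusted p = 0.702), and Plac8 was called by DESeq2 and not by edgeR. Lyz2, the lysozyme of myeloid cells, had a log2 fold change of -0.26 and S100a4 of -0.17. The genes of class II antigen presentation were lower in mean in 8 of 8, with a median of -0.37. Again 3 had an unadjusted p under 0.05 and 3 did not overlap, against 3.01% and 5.14% of all genes. Cd74, the invariant chain, was at 175, 187 and 187 CPM after nicotine and at 212, 226 and 273 CPM in the controls (log2 fold change -0.38, SE 0.16, edgeR adjusted p = 0.806). Unlike the 6-gene mean, the centred mean of this list was lowest in nicotine 3, at -0.08, -0.23 and -0.28 in nicotine 1, 2 and 3. Cd74 and RT1-Da were as low in nicotine 3 as in the other nicotine libraries. RT1-DMa and RT1-DMb, named after their values were seen, were instead highest after nicotine in nicotine 3. There they lay within the control range, at 13.8 CPM and 15.6 CPM. None of these genes was called by edgeR.

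Among transcripts of blood cells, those of the erythroid list moved most closely with the macrophage genes. Correlations with the 6-gene mean were 0.88 for the monocyte list and 0.59 for the B cell list. They were 0.31 for the T cell list and 0.19 for the neutrophil list. The erythroid list was lower in mean in 12 of 12 genes, 9 of them at an unadjusted p under 0.05 against 3.01% of all genes, with a median log2 fold change of -1.13, and its centred mean had a correlation of 0.92 with the 6-gene mean over the 6 libraries. Its summed level ranged from 3275 CPM to 10395 CPM after nicotine and from 8632 CPM to 17331 CPM in the controls, and Hba-a1, the alpha globin, alone reached 8982 CPM in control 3. The neutrophil granule list followed another order, with S100a9 at 63.3, 3.92 and 44.9 CPM in control 1, 2 and 3 and at 10.04 CPM to 11.2 CPM after nicotine. Lcn2 of this list did not share that order. It was at 21.3, 15.9 and 14.8 CPM in control 1, 2 and 3 and at 11.4, 23.2 and 18.3 CPM in nicotine 1, 2 and 3 (log2 fold change 0.04). The summed neutrophil level ranged from 35.2 CPM to 46.3 CPM after nicotine and from 22.8 CPM to 161 CPM in the controls. Of the 8 tested neutrophil genes, 7 had lower means, with a median log2 fold change of -1.80. Among them 6 had an unadjusted p under 0.05, against 3.01% of all genes. In 0 of the 8 were all nicotine libraries below the controls, against 5.14% of all genes. In control 2, where the summed neutrophil level was lowest, Csf1r was at 44.5 CPM. Outside blood, the posterior lobe list had a correlation of -0.62 with the 6-gene mean. The parts of blood and of the dissection in the macrophage values were not tested.

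The genes nearest to the 6-gene mean in profile, among 14506 genes with a mean of at least 1 CPM, were Ybx3 (Pearson r = 0.99), Hbq1b (0.99), Lat2 (0.99), Alas2 (0.99) and Epsti1 (0.99). Alas2 is the first enzyme of haem synthesis in red cells and Hbq1b is a globin gene. Alas2 was at 48.2, 37.7 and 121 CPM after nicotine and at 129, 147 and 197 CPM in the controls, so it repeated the low nicotine 1 and 2.

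**Figure D3:**
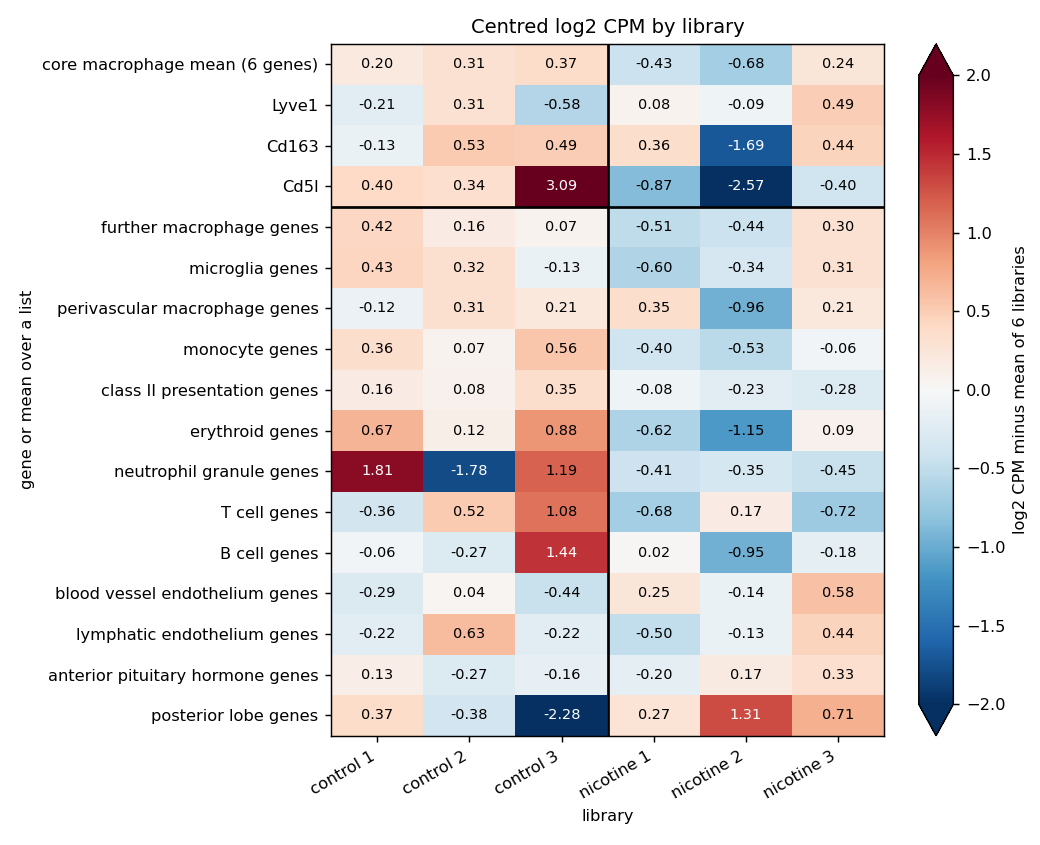
Centred log2 CPM (colour and printed value, each gene minus its mean over 6 libraries) of the 6-gene mean, 3 further members and the means of marker lists (vertical axis) in each library (horizontal axis). The 6-gene mean is -0.43 and -0.68 in nicotine 1 and 2 and 0.24 in nicotine 3. Control 3 has the highest Cd5l at 3.09 and the lowest posterior lobe mean at -2.28.

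Cd5l was scarce in all libraries. It had 4, 0 and 8 counts in nicotine 1, 2 and 3 and 7, 13 and 71 counts in control 1, 2 and 3. In CPM these were 0.0849, 0 and 0.132 after nicotine and 0.258, 0.246 and 1.88 in the controls. Control 3 thus held 68.9% of the 103 counts, 7.26 times the next highest level. The exact Poisson 95% intervals, which cover counting error only, were 1.46 CPM to 2.37 CPM for control 3 and 0.104 CPM to 0.533 CPM and 0.131 CPM to 0.420 CPM for control 1 and 2. Those of nicotine 1 and 3 reached up to 0.217 CPM and 0.260 CPM and so overlapped those of control 1 and 2. That of nicotine 2, with 0 counts, reached up to 0.0400 CPM. The fitted log2 fold change was -3.64 with all libraries and -1.99 without control 3. The gene passed the filter on low counts only through the control group, and 5.14% of all genes had nicotine libraries below all controls.

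Relative to Csf1r, the pattern of Cd5l was like that of its level. There were 0.376, 0 and 0.280 Cd5l counts per 100 Csf1r counts in nicotine 1, 2 and 3 and 0.579, 0.553 and 4.11 in control 1, 2 and 3. Control 3 stood out again while its Csf1r was at the level of the other controls. Of all genes taken per Csf1r count, 0.445% had nicotine libraries below all controls, and Cd5l was among the members for its contrast, so nothing is read from this. The same ratio put Lyve1 at 54.2, 37.5 and 34.6 counts per 100 Csf1r counts after nicotine and at 22.5, 32.3 and 17.0 in the controls. These did not overlap, but 17.2% of all genes were higher in this way, as Csf1r itself was low in nicotine 1 and 2. The ratios of Cd68, Cd163, Mrc1, Adgre1, Aif1 and Cx3cr1 to Csf1r overlapped between the groups.

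**Figure D4:**
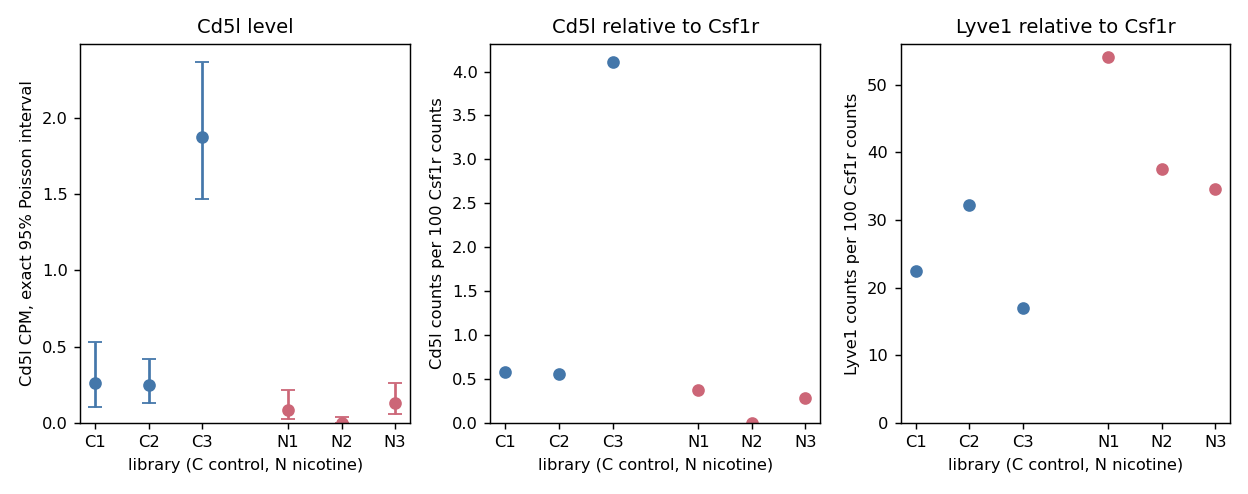
Cd5l in CPM with exact 95% Poisson intervals (left), Cd5l counts per 100 Csf1r counts (middle) and Lyve1 counts per 100 Csf1r counts (right), each on a vertical axis from 0, in control libraries C1 to C3 and nicotine libraries N1 to N3. Control 3 lies at 1.88 CPM and at 4.11 Cd5l counts per 100 Csf1r counts, and the next highest library at 0.258 CPM and 0.579.

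Control 3 also differed in other transcripts. The B cell genes Cd79a and Cd79b were at 3.09 CPM and 3.30 CPM there and at 0.564 CPM to 1.11 CPM and 0.890 CPM to 1.62 CPM in the other libraries. The summed B cell level ranged from 1.65 CPM to 2.72 CPM after nicotine and from 2.55 CPM to 8.32 CPM in the controls, and 3 of 3 tested genes of the list had lower means after nicotine. Their median log2 fold change of -1.09 was -0.16 without control 3. The T cell gene Cd3g was at 2.54 CPM in control 3 and at 0.330 CPM to 1.53 CPM elsewhere, whereas Lck was lowest in control 3, at 6.18 CPM. Over the 6 libraries the centred log2 CPM of Cd5l had a correlation of 0.93 with the B cell list and 0.92 with the monocyte list. It was 0.91 with the erythroid list and -0.94 with the posterior lobe list. With the 6-gene mean it was 0.81, with the T cell list 0.57 and with the spleen and liver list 0.28. The Cd5l profile is set mostly by control 3 and nicotine 2, at 3.09 and -2.57. Cd5l was also selected on its change, so nothing is read from these correlations. Of the scarce genes of spleen and liver macrophages, Timd4, Vsig4, Clec4f and Spic had 3, 2, 2 and 2 counts in control 3. Timd4 and Vsig4 had their most counts in control 3, whereas Clec4f reached 17 counts in nicotine 3 and Spic 14 counts in nicotine 1. Counts this few do not describe the list as a whole. The part of these cells and of the dissection in the Cd5l value was not tested.

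The genes nearest to Cd5l in profile, among the same 14506 genes, were Mapk11 (Pearson r = 0.996), Bdnf (0.99), Scn2a (0.99), Ptprcap (0.98) and C5ar1 (0.98). Over 6 libraries the nearest of so many genes come close to 1, here and for the 6-gene mean. No shared expression is read from these values. Bdnf, a neurotrophin, was at 16.5 CPM in control 3 and at 3.43 CPM to 7.62 CPM in the other libraries. C5ar1, the receptor of complement C5a on myeloid cells, and Ptprcap, a partner of CD45 in lymphocytes, were also highest in control 3, as were Mapk11 and Scn2a.

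The other scavenger receptor genes had lower means in 9 of 12, with a median log2 fold change of -0.46 (-0.31 without control 2). Colec12, a collectin scavenger receptor, was at 20.1, 12.7 and 23.0 CPM after nicotine and at 26.0, 24.9 and 29.4 CPM in the controls. All nicotine libraries were below the controls, as were those of 5.14% of all genes (log2 fold change -0.53, SE 0.22, edgeR adjusted p = 0.806). Scara5 of this list, named after its values were seen, was instead at 1.85, 2.15 and 1.93 CPM after nicotine and at 1.55, 1.17 and 0.528 CPM in the controls (log2 fold change 0.90, SE 0.36, edgeR adjusted p = 0.806). Scarb1, the receptor of high-density lipoprotein, and Scarb2 of lysosomes had log2 fold changes of 0.44 and 0.03. Dendritic cell genes had lower means in 3 of 4 tested, among them Clec9a at -1.08 and Flt3 at -0.63, whereas Zbtb46 was at 0.41. T cell genes had lower means in 4 of 5. Mast cell transcripts were scarce, and Hdc had a log2 fold change of -0.54 and Cpa3 of 1.26.

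Endothelial genes were set beside Lyve1. Blood vessel genes had higher means after nicotine in 6 of 6, with a median log2 fold change of 0.42 (0.23 without nicotine 3), and 3 of 6 had an unadjusted p under 0.05, against 3.13% of all genes. Plvap, of fenestrated endothelium, was at 83.7, 61.7 and 105 CPM after nicotine and at 45.5, 61.1 and 46.6 CPM in the controls. The nicotine libraries lay above the controls, as did those of 6.12% of all genes, and the log2 fold change was 0.71 (SE 0.21, edgeR adjusted p = 0.760). Kdr, the main receptor of VEGF, and Emcn had log2 fold changes of 0.44 and 0.20. Lymphatic genes had higher means in 2 of 6, and their median of -0.19 turned to 0.34 without control 2 and to 0.086 without nicotine 1. Among them Flt4, the lymphatic VEGF receptor, was at 0.68, Pdpn at 0.33 and Ccl21 at -0.33. Whether Lyve1 came from macrophages or from endothelium cannot be told apart in these libraries.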

How the data were processed

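The deposited files hold whole-number counts per gene symbol, 1 file per library. Per the labels and the study's methods, the authors mapped paired reads of stranded libraries to rn7 with HISAT2 2.1.0 and counted them with featureCounts on the UCSC ncbiRefSeq annotation. The version of featureCounts, its strand setting, the handling of reads with several matches, and whether reads or pairs were counted are not given in the sources used here. No normalisation had been applied.

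Counts were analysed in R 4.3.3 with edgeR 4.0.16 (TMM, filterByExpr, quasi-likelihood test of nicotine against control without a covariate, Benjamini-Hochberg adjustment over 17292 genes). The call rule was a fold change over 1.5 with adjusted p below 0.1. TMM factors lay between 0.957 and 1.07, and the common biological coefficient of variation was 23.6%. Centred levels and correlations used log2 CPM with a prior count of 2. The SE is the log2 fold change divided by the square root of the F statistic. The procedure was tested on simulated data.

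The members and marker lists were chosen with earlier results of these data known. Named were the members, up to 3 of the most abundant tested genes of each list, genes of a list at or near 0, and the 5 genes nearest in profile. Some list genes that this rule names are not reported here. Any other gene was chosen after its values were seen, including Irf8, Csf1, Spi1, Tfec, Mpeg1, Laptm5, RT1-DMa, RT1-DMb, Siglec1 and Scara5. Levels were not ordered between genes, since no transcript lengths were used. Alternatives were DESeq2 1.42.0, voom of limma 3.58.1 with sample weights, the older fit of edgeR, RLE factors or unscaled totals in place of TMM, no low-count filter or a minimum of 10 in each library, thinned libraries of equal depth, a limit of 0.05 on the adjusted p, a replicate block, and fits without 1 library each. A fit without genes that take over 1% of a library was added after seeing the data. Depth was 28318383 to 85977002 counts per library, so that 3 counts corresponded to 0.0326 CPM to 0.111 CPM.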

Additional observations from a re-analysis of the deposited data

How the results depend on the processing

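None of the 8 members tested was called under any alternative run. Over all genes, edgeR called 0 and DESeq2 called 62, while library sizes alone gave 1, no filter 2, limma voom 1 and leaving out each library 0 to 9. With the replicate block 2 genes were called, but the replicate numbers are not stated to pair the rats. Correlations of deviations between libraries of the same number were 0.03, -0.20 and -0.08. These values cannot exclude a weak pairing. Cd163 turned to a log2 fold change of 0.023 without nicotine 2, and ranged from -0.89 to 0.023 with a library left out. The cause was not tested. The direction of the other 7 tested members was the same under each alternative. Cd5l had a log2 fold change of -1.99 without control 3 in place of -3.64. This library holds most of its counts. Cd5l could not be fitted with at least 10 counts in every library or in the thinned counts. Among the marker lists, the median of the microglia list was -0.81 without nicotine 3 and that of the monocyte list -0.37 without control 3. That of the B cell list was -0.16 without control 3. That of the neutrophil list was -0.13 with limma voom, in place of -1.80. That of the perivascular list was 0.15 without nicotine 2, and that of the lymphatic list 0.34 without control 2. DESeq2 called 4 of the list genes, among them Hemgn, Plac8 and Slc4a1. Leaving out nicotine 3 gave Alas2 and Hemgn, and leaving out control 2 gave Camp, Ngp, S100a8 and S100a9. Depth limits Cd5l, Marco, Timd4 and Vsig4, whose counts were few.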
